A study of Drosophila melanogaster with 6 samples.

Results

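The ELAV family of Drosophila melanogaster consists of elav, fne (found in neurons) and Rbp9, which encode closely related RNA-binding proteins. Their transcripts were taken from the authors' deposited tables by RefSeq accession and gene name. They numbered 22 of the 34115 transcripts listed: 4 of elav, 9 of fne and 9 of Rbp9. Of the 22, 4 had a base mean above 0 and 18 were listed at 0. A base mean is the mean over libraries of read counts divided by size factors, called a normalized count below.

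The samples were larval central nervous systems at 84 h AEL, 15 per sample, from animals reared at 25 °C. The labels give 3 knockdown samples of genotype dSET2 RNAi/+; elavC155GAL4 and 3 control samples of genotype dSET2 RNAi/+; Canton S. Both groups thus carried the RNAi transgene against dSET2, the histone methyltransferase gene Set2, and only the knockdown group carried the GAL4 driver. The driver is an enhancer-trap insertion at elav itself, so the knockdown group also differed from the control group at the locus of one family member. The driver acts in neurons, and the tissue was taken whole, with its glia and neuroblasts.

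ELAV is an RNA-binding protein of neuronal nuclei and is the standard marker of differentiated neurons in the fly. FNE and RBP9 share its arrangement of RNA recognition motifs. FNE is neuronal and mainly cytoplasmic, and RBP9 is found in neurons and in the female germ line. ELAV and FNE bind uridine-rich RNA and are known for neuron-specific splicing and for promoting the use of distal polyadenylation sites, which gives neurons transcripts with extended 3' UTRs, including those of elav.

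The tables hold no values per labelled sample and do not state which group is the numerator. The lowest base means were whole-number sums of 4 steps, each the value of 1 read in 1 library. They gave 4 libraries, called A, B, C and D, with size factors of 1.48, 1.11, 0.902 and 0.701, whereas the labels describe 6 samples. All transcripts with a single read in A, C or D were positive in fold change in the authors' deposited table (edgeR), and all 489 with a single read in B a negative one. Positive values below therefore mean a higher level in A, C and D, and negative values a higher level in B. Which side is the knockdown is not known, and the side of B has 1 library and no replicate. Set2 (NM_132660), the RNAi target, had normalized counts of 6.75, 23.3 and 0 in A, C and D, against 32.4 in B, where 0 reads in D allow up to 4.28, the value of 3 reads there. Its 95% exact Poisson interval in B (22.7 to 44.9) lay above those of A (3.24 to 12.4) and D (0 to 5.26) and overlapped that of C (14.4 to 35.6). The log2 fold change of Set2 was -1.65 by edgeR (unadjusted p = 0.0388, false discovery rate 1) and -0.85 ± 0.657 by DESeq2 (adjusted p = 0.9999) in the authors' deposited tables. The libraries carry no labels, and the sides were not assigned to groups from the level of Set2.

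The bases that each transcript holds were examined first in the Ensembl annotation of BDGP6.54. The build named in the submitters' processing notes is dm3, so the positions of that annotation were not used with the tables. The gene elav lies on chromosome X at 509235 to 523226 (minus strand), fne on chromosome X at 12917477 to 12950417 (plus strand) and Rbp9 on chromosome 2L at 2954762 to 2968434 (plus strand). Of the 4 annotated elav transcripts, 2 hold bases that no other elav transcript has. In elav-RB these are 209 bases of 5' UTR, and in elav-RD they are 7615 bases of 3' UTR, the extended end. The other two elav transcripts hold none, and 2 elav accessions were listed at 0 in the authors' deposited table.

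For Rbp9, 3 of the 9 annotated transcripts hold own bases. Rbp9-RG holds 3586 bases of its own, 3583 of them in an extended 3' UTR, while Rbp9-RB and Rbp9-RE hold 4 and 5 bases and the other 6 hold none. Of the 9 Rbp9 transcripts in the authors' deposited table, 1 had a base mean above 0. None of the 11 annotated fne transcripts holds a base of its own. Leaving out fne-RK and fne-RL, which contain a 45-base exon, gave fne-RC 199 bases of 5' UTR of its own and the other 8 none. This subset was chosen after the values were seen. The gene table lists 11 fne accessions, of which 2 have no entry in the tables, and 1 of the 9 fne transcripts in the authors' deposited table had a base mean above 0. The files do not pair accessions with annotated transcript names, so no accession is assigned to an isoform here.

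**Figure D1:**
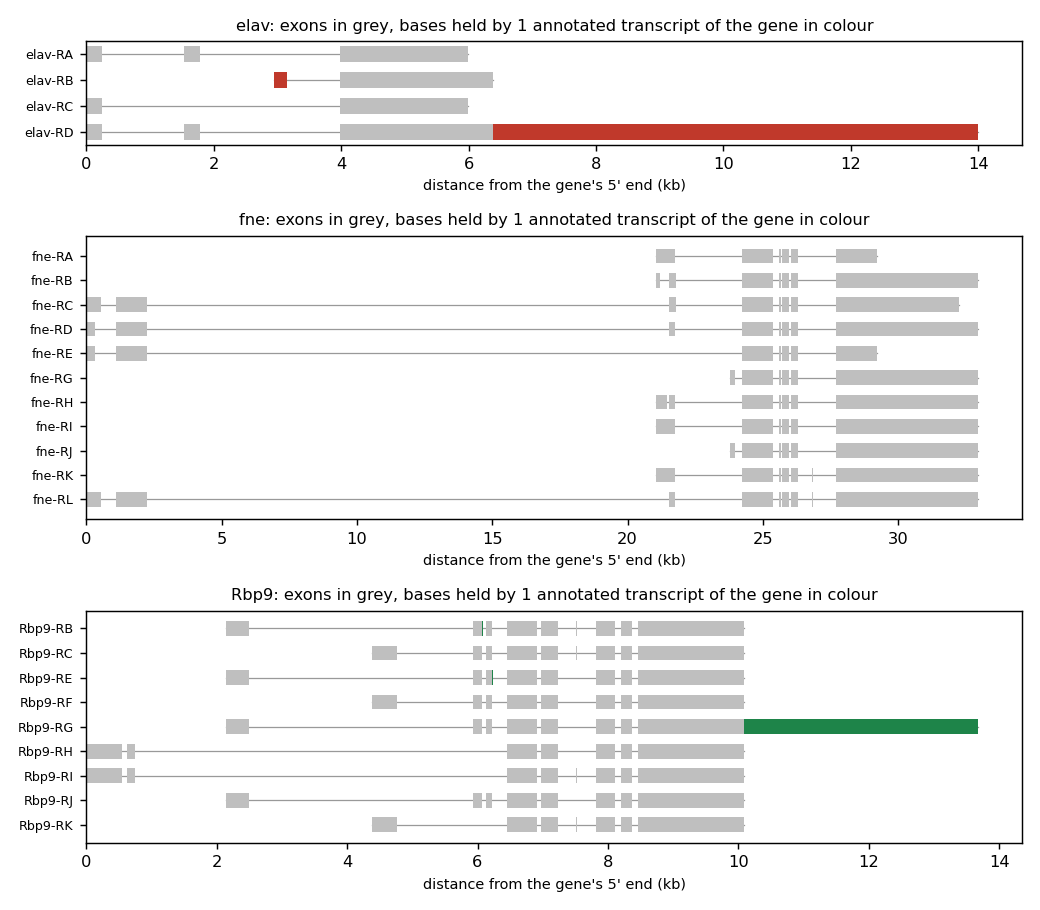
Annotated transcripts of elav, fne and Rbp9 (BDGP6.54), drawn as exons along the distance from each gene's 5' end in kb. Grey marks bases shared by 2 or more transcripts of the gene and colour marks bases held by 1 transcript. Long stretches held by 1 transcript are seen at the 3' ends of elav-RD (7615 bases) and Rbp9-RG (3583 of its 3586), and none is seen in fne.

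A similar comparison was made across the annotation, but with a stricter count. Bases there were a transcript's own only if no other annotated transcript of any gene covered them, on either strand. It left out fne, which has 9 transcripts listed and 11 annotated, and which had reads without own bases. Of 7226 genes with 2 or more transcripts and the same number annotated, 7210 (99.8%) had no more transcripts with reads than annotated transcripts with bases of their own. Among the 715 such genes without any own bases, 708 (99.0%) had no transcript with a base mean above 0 in the authors' deposited table. A highest base mean of 0 was also the lower quartile over all genes with 2 to 4 listed transcripts. How shared reads were treated is not stated in the sources used here. The base means of elav, fne and Rbp9 were therefore not compared with each other as levels of the genes. Part of the own stretch of elav-RD, 3169 bases, is also covered by exons of other genes. The exons that overlap elav-RD alone belong to arg, an arginase gene on the opposite strand. Exons of lncRNA:enrr overlap elav-RD and also elav-RA and elav-RC, which hold none of that stretch. In Rbp9-RG 142 own bases are also covered by Ts on the opposite strand. Whether strand was used in counting is not stated.

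Only 4 of the 22 family transcripts had reads and could be called, as against 15342 of all 34115. At a false discovery rate threshold of 0.05, none of the 22 transcripts was called by edgeR in the authors' deposited table, where 0.868% of all 34115 transcripts did, 0.0791% as positive and 0.789% as negative calls. None was below an adjusted p of 0.05 by the authors' deposited table (DESeq2) either, where 2.26% of 9221 transcripts did. At an unadjusted p-value under 0.05 the family again had 0 transcripts in both of the authors' deposited tables, against 6.32% of the 15342 transcripts with reads by edgeR and 3.77% by DESeq2. Of the 4 family transcripts with reads, 3 were positive and 1 was negative, and 51.3% of the 7180 transcripts at base mean 10 or above were positive.

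The abundant elav transcript, NM_001258518, had 2614 normalized counts as its base mean, from the authors' deposited table, and ranked 839 of all transcripts. Its reads could not be resolved by library. The base mean and the edgeR fold change of the authors' deposited table together gave 2800 normalized counts as the level of A, C and D and 2054 as that of B. This derivation was checked in 567 transcripts whose reads were resolved, at base means of 20 to 30. Derived levels differed from the observed ones by a median of -0.119% for A, C and D (5th to 95th percentile -0.677% to 1.09%). For B the median was 0.428% (-1.40% to 2.84%). At higher base means, such as that of this transcript, the derivation could not be checked. The log2 fold change of NM_001258518 was 0.45 in the authors' deposited table (edgeR) (1.36-fold, unadjusted p = 0.264, false discovery rate 1). The authors' deposited table (DESeq2) gave 0.40 ± 0.450 (standard error, adjusted p = 0.9999), and the 95% interval computed from that error ran from 0.717-fold to 2.43-fold. Neither a lower level in A, C and D nor a level of 2 times that of B is thus outside the interval. Among 1380 other transcripts within 2-fold of its base mean, 91.5% were lower in edgeR fold change by the authors' deposited table, and 13.0% had one larger in size. The share that was lower was similar for the transcripts of Rbp9 (88.5%) and fne (82.7%) with reads, and was 32.0% for the other elav transcript.

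The other elav transcript, NM_001014713, was resolved into 62 reads. It had 12 reads in A, 25 in C and 5 in D, and 20 in B. These gave normalized counts of 8.10 in A (95% exact Poisson interval 4.19 to 14.2), 27.7 in C (17.9 to 40.9) and 7.13 in D (2.31 to 16.6), against 18.0 in B (11.0 to 27.8). The order from high to low was C, B, A, D, so that the value of B lay within the range of the other side. The intervals of A and D did not overlap that of C, and the remaining 4 of 6 pairs of intervals overlapped. Library C was 3.89 times D. Over 1709 transcripts with base means of 10 to 30, the median ratio of the highest to the lowest of A, C and D was 2.23. Transcripts without reads in A, C or D, whose ratio is undefined and whose spread is wide, were left out of the 1759 resolved. Of the 1709, 18.5% exceeded the ratio of this elav transcript. The mean of A, C and D was 14.3 ± 11.6 (SD, n = 3), which is 0.795 times the level of B, and without library C the ratio was 0.423. Its log2 fold change was -0.33 in the authors' deposited table (edgeR) (unadjusted p = 0.700, false discovery rate 1) and -0.18 ± 0.656 in that of DESeq2.

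The fne transcript with reads, NM_001258717, had 28 reads in A, 28 in C and 16 in D, and 15 in B. The normalized counts were 18.9 in A (95% exact Poisson interval 12.6 to 27.3), 31.0 in C (20.6 to 44.9) and 22.8 in D (13.0 to 37.0), against 13.5 in B (7.56 to 22.3). Library B was thus the lowest of the 4, but its interval overlapped those of all 3 others. The mean of A, C and D was 24.3 ± 6.19 (SD, n = 3), 1.79 times the level of B, and the ratio stayed between 1.54 and 1.99 with each of A, C and D left out. Its log2 fold change was 0.83 in the authors' deposited table (edgeR) (unadjusted p = 0.338, false discovery rate 1). The DESeq2 value in the authors' deposited table was 0.53 ± 0.630, with a 95% interval from 0.614-fold to 3.40-fold.

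For Rbp9, NM_001014462 had 25 reads in A, 24 in C and 19 in D, and 12 in B. The normalized counts were 16.9 in A (95% exact Poisson interval 10.9 to 24.9), 26.6 in C (17.0 to 39.6) and 27.1 in D (16.3 to 42.3), against 10.8 in B (5.59 to 18.9). Library B was again the lowest, and all 6 pairs of intervals overlapped. The mean of A, C and D was 23.5 ± 5.76 (SD, n = 3), 2.18 times the level of B, with ratios of 2.01 to 2.48 when each of A, C and D was left out. A log2 value of 1.09, the largest of the family, was listed in the authors' deposited table (edgeR) (unadjusted p = 0.222, false discovery rate 1). The authors' deposited table (DESeq2) gave 0.68 ± 0.635, with a 95% interval from 0.677-fold to 3.80-fold.

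**Figure D2:**
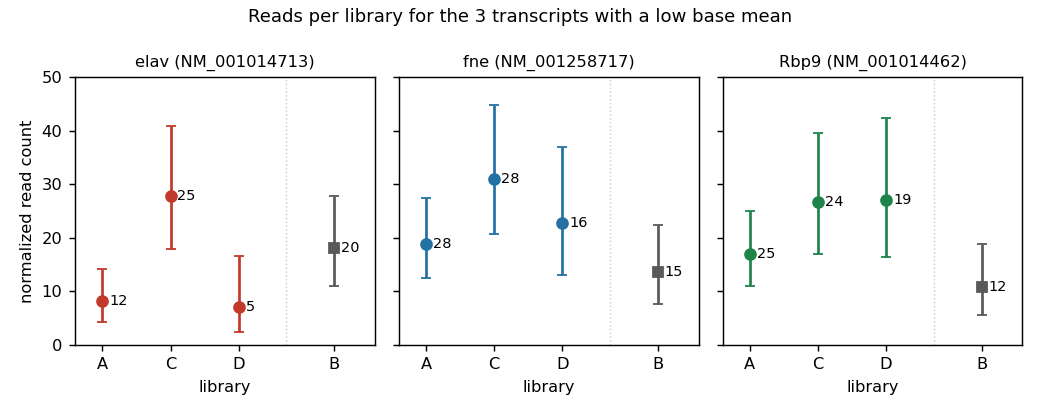
Normalized read counts of NM_001014713 (elav), NM_001258717 (fne) and NM_001014462 (Rbp9) in libraries A, C and D and in library B, right of the dotted line. Bars are 95% exact Poisson intervals, which cover counting error only, and the number beside each point is the reads. Library B is the lowest for fne (13.5) and Rbp9 (10.8), and for elav it lies between C (27.7) and A (8.10).

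A position of B below all of A, C and D was common at this level of reads. Of 1759 resolved transcripts with base means of 10 to 30, 26.8% had B as the lowest library and 24.8% had B as the highest. The place of B below the others in fne and Rbp9 was thus one that 26.8% of comparable transcripts shared. The ratio of fne reads to Rbp9 reads was 1.12 in A, 1.17 in C and 0.842 in D, and 1.25 in B. The ratio needs no size factor, since both counts come from 1 library.

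The low elav transcript was set beside fne and Rbp9 in the same way. It took 18.5% of the reads of these 3 transcripts in A (95% exact binomial interval 9.92% to 30.03%), 32.5% in C (22.2% to 44.1%) and 12.5% in D (4.19% to 26.8%), against 42.6% in B (28.3% to 57.8%). The interval of B lay above that of D and overlapped those of A and C. The highest share of A, C and D, that of C, was within counting error of B.

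Because the driver sits at elav, elav was compared with the family members elsewhere in the genome. Each gene was represented by its most abundant transcript, so the values are those of single transcripts and not of whole genes. Their base means were 2614 for elav, 21.6 for fne and 20.3 for Rbp9. Which stretch of its gene each transcript was counted over is not known. By the authors' deposited table (edgeR), elav minus fne was -0.38 in log2 fold change, and elav minus Rbp9 was -0.65. In the authors' deposited table (DESeq2) the differences were -0.13 (95% interval -1.65 to 1.39) and -0.28 (-1.80 to 1.25), with the standard errors of both transcripts combined as if independent. The 2 elav transcripts differed by 0.77 (NM_001258518 minus NM_001014713) in log2 units by edgeR in the authors' deposited table, and by 0.59 (-0.97 to 2.14) in the DESeq2 one. These differences are descriptions without a test of their own. By DESeq2 the fold changes were smaller in size than by edgeR, at 0.53 against 0.83 for fne and 0.68 against 1.09 for Rbp9. For the abundant elav transcript they were 0.40 and 0.45, which lie closer together. The DESeq2 differences and their intervals rest on these smaller values. The intervals include 0 and also include changes beyond 2-fold in either direction for the comparisons of elav with fne and Rbp9.

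**Figure D3:**
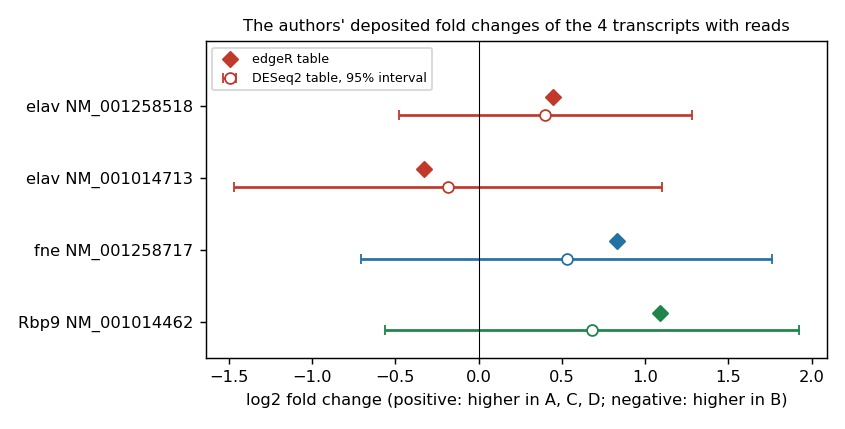
Log2 fold changes of the 4 family transcripts with reads in the authors' deposited tables. Diamonds are edgeR values and open circles are DESeq2 values with 95% intervals from the deposited standard error. All 4 intervals cross 0, and the single negative pair is that of NM_001014713 (elav, -0.33 and -0.18).

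**Figure D4:**
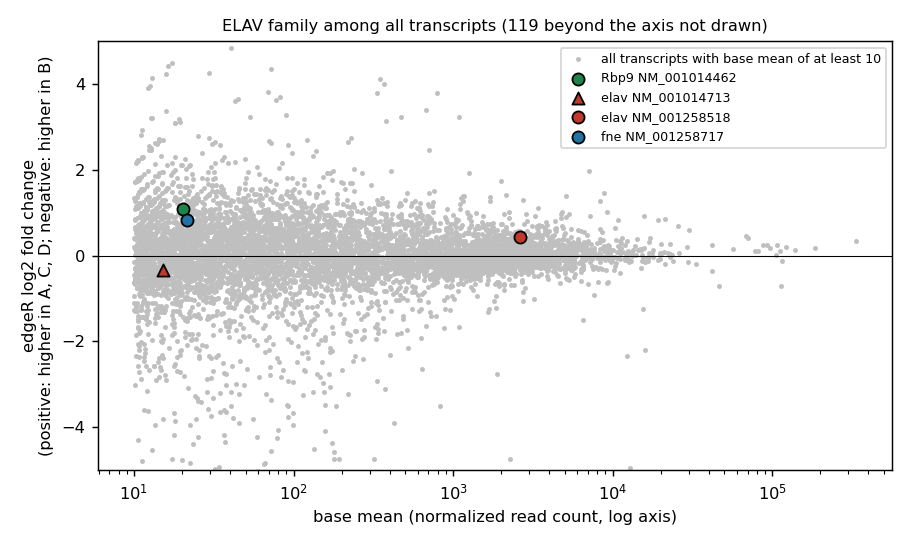
EdgeR log2 fold change against base mean (log axis) for the 7180 transcripts at base mean 10 or above in the authors' deposited tables, with the family marked. The axis leaves out 119 transcripts beyond 5 log2 units. NM_001258518 (elav) lies at 0.45 where the cloud is narrow, and the fne and Rbp9 transcripts lie at 0.83 and 1.09 where it is wide.

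The genes next to the family members were looked up in the gene table of Release 6. Beside elav, svr, a carboxypeptidase gene, had an edgeR log2 value of 0.17 (NM_001144669, normalized counts 8.78, 21.1 and 9.98 in A, C and D, against 11.7 in B) by the authors' deposited table. The next gene by start position was arg, which lies over the extended end of elav-RD. It had a value of -0.20 (NM_080136) by the authors' deposited table (edgeR). Both genes are thus toward the far end of elav, and no gene beyond the start of elav was looked up. Neither neighbour of elav passed the threshold. Beside fne, the authors' deposited table (edgeR) gave 0.94 for lncRNA:CR45626 (NR_123889) and 1.75 for hec (NM_132615), a peptide receptor gene. The reads of hec numbered 15 in A, 11 in C and 18 in D, and 5 in B. Beside Rbp9 the authors' deposited table (edgeR) gave 0.90 for lilli (NM_078740), a transcription elongation factor gene, and -0.80 for Ts (NM_058019), thymidylate synthase. The false discovery rate was 1 for all 6 neighbours.

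The transcripts closest to each family member in both fold changes, among those within 2-fold of its base mean, were listed as a description. For elav (NM_001258518) they were MrgBP, bdl and Sln, with summed absolute differences of 0.000962, 0.00264 and 0.00289 log2 units from its values in the authors' deposited tables. For fne they were CG4645, Paip1 and lncRNA:CR45337 (0.0124, 0.0170 and 0.0240 log2 units in the authors' deposited tables). For Rbp9 they were Eno, Shaw and CG32055 (0.0184, 0.0232 and 0.0258 log2 units in the authors' deposited tables). Likeness in 2 fold changes did not mean likeness by library: lncRNA:CR45337 had 35 reads in A, 9 in C and 29 in D, and 15 in B, where fne had 28, 28 and 16, and 15.

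Other RNA-binding proteins of neurons were examined as a list of 21 genes, each represented by its most abundant transcript. In the list, 19 genes had reads and 12 had a base mean of at least 10, and 0 of the 12 passed the threshold in either direction in either of the authors' deposited tables. Over all 6596 genes at base mean 10 or above, 0.394% passed as positive and 3.2% as negative in the authors' deposited table (edgeR). Of the 12 genes, 9 were positive, and their median was 0.54 by edgeR in the authors' deposited table, and 4 had an unadjusted p-value under 0.05. Of all 6596 genes, 9.17% had such a p-value and 51.6% were positive, with a median of 0.01. With the genes of lower base mean included, the median of the list was 0.13. The largest value was that of Sxl, the sex-determination splicing factor related in sequence to ELAV, at 1.93 in the authors' deposited table (edgeR) (unadjusted p = 0.00496, false discovery rate 0.365). In the authors' deposited table (edgeR) Imp, an mRNA-binding protein of young neurons and neuroblasts, had 1.11 (unadjusted p = 0.00605, false discovery rate 0.428) and msi, the RNA-binding protein Musashi, had 0.54. The RNA-editing enzyme gene Adar was lowest at -0.79 in the authors' deposited table (edgeR). Rbfox1 and Syp, which have 9 and 20 transcripts, were listed at 0 throughout.

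Genes reported as targets of ELAV or FNE, in splicing or in 3' UTR extension, were taken as a second list of 15, of which 4 (Adar, brat, Imp, pum) and shep are also in the first. In that list 13 genes had a base mean of at least 10, and 0 passed the threshold in either direction. Of all 6596 genes at base mean 10 or above, 0.394% passed as positive and 3.2% as negative, and 51.6% had a positive value. The edgeR median of the list was -0.06 by the authors' deposited table, and 6 of the 13 were positive. At base mean 50 or above the median of the list was 0.07. The actin regulator chic (profilin) had 0.07 in the authors' deposited table (edgeR) and brat, a translational repressor, had -0.16. Outside the rule for naming genes, the classical splicing targets Nrg, arm and ewg had 0.97, -0.16 and -0.53 in the authors' deposited table (edgeR), with unadjusted p-values of 0.101, 0.812 and 0.526. The tables give 1 fold change per transcript and none per exon or 3' end, so the use of an exon or a polyadenylation site was not measured here.

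Cleavage and polyadenylation factors, 13 genes of which 12 had a base mean of at least 10, had an edgeR median of 0.13 by the authors' deposited table, and 0 passed the threshold. Among all 6596 genes at base mean 10 or above, 0.394% passed as positive and 3.2% as negative. In the authors' deposited table (edgeR) the abundant factors Fip1, Cpsf73 and CstF50 had 0.07, -0.05 and 0.15, and the list ran from -0.58 for Cpsf160 to 0.67 for su(f), the CstF77 homologue.

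**Figure D5:**
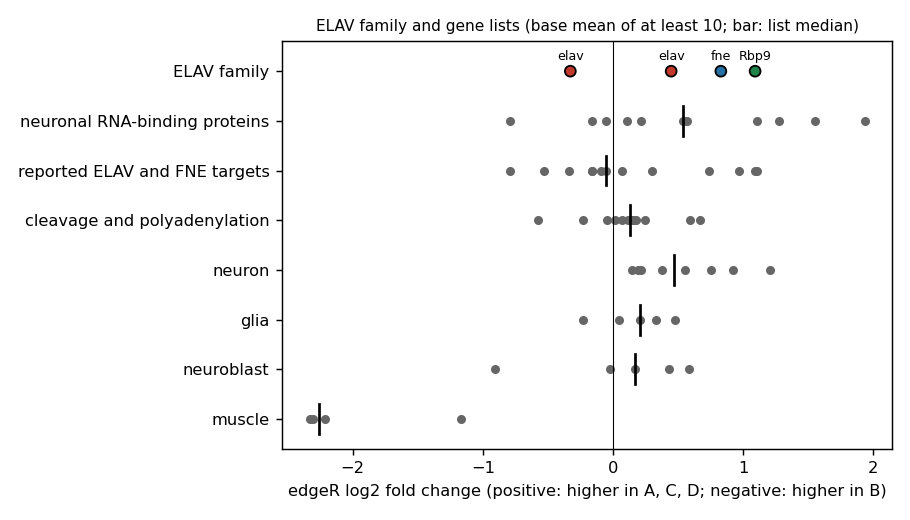
EdgeR log2 fold changes from the authors' deposited table for the 4 family transcripts with reads and for the genes of 7 lists with a base mean of at least 10. Each point is the most abundant transcript of 1 gene and each bar is a list median. The neuron list lies between 0.15 and 1.20, the list of reported targets has a median of -0.06, and the 4 muscle genes lie below 0.

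Markers of neurons were on the same side as most of the family. All 8 neuron markers (nSyb, Syt1, brp, futsch, ChAT, VAChT, VGlut, Gad1) were positive, and their median was 0.47 by the authors' deposited table (edgeR), where 0 of the 8 passed the threshold. Of all 6596 genes at base mean 10 or above, 51.6% were positive, with a median of 0.01. Among those genes 0.394% passed the threshold as positive and 3.2% as negative. The levels of the 8 neuron markers, derived as for elav, summed to 7604 normalized counts in A, C and D and 5018 in B. In these bulk samples fewer neurons and less RNA per neuron cannot be told apart. Glial markers had a median of 0.21 (4 of 5 positive) and neuroblast markers one of 0.17 (3 of 5 positive) in the authors' deposited table (edgeR). Most marker genes of tissues outside the nervous system were on the side of B. In the authors' deposited table (edgeR) the 4 muscle genes at base mean 10 or above had a median of -2.26 (0 positive), the 2 fat body genes one of -6.62 (0 positive), and the 6 salivary gland genes one of -4.94 (1 positive). Of the muscle and fat body genes, 0 passed the threshold by edgeR. In the authors' deposited table (DESeq2) 0 muscle genes and 1 fat body gene, Lsp1alpha (adjusted p = 0.0386), were below 0.05. The 3 salivary gland genes Sgs4, Sgs5 and Sgs7 passed the edgeR threshold as negative, where 3.2% of all genes did. The other 3 of the 6 did not pass it, with -1.86 for Sgs8, -1.42 for fkh and 0.72 for Sgs1 in the authors' deposited table (edgeR). Summed levels derived from the authors' deposited table were 14431 in A, C and D and 69164 in B for muscle, 731 in A, C and D and 74259 in B for fat body, and 50.8 in A, C and D and 1134 in B for salivary gland. The fat body marker Fbp1 was listed at 0. The part of these tissues in the values of the neuron markers and of elav, fne and Rbp9 was not tested.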

How the data were processed

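RNA sequencing of larval central nervous systems was analysed from 2 tables of the authors' own comparison. Per the submitters' processing notes, HISAT2, featureCounts, DESeq2, edgeR and the build dm3 were used. Versions, strand and the treatment of shared reads are not given in the sources used here. Per the file headers, the table made with DESeq2 holds a base mean (a signal: normalized counts averaged over libraries), a log2 fold change with standard error and a Wald statistic, and the one made with edgeR a log2 fold change, a log2 CPM and an F statistic. Both statistics are deposited scores, and both tables hold deposited p-values, unadjusted and adjusted. No values per sample are given, and 0 columns of such values were left out. Depth per labelled sample is unknown.

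The authors' edgeR table was the main result at a false discovery rate of 0.05, and no differential test was rerun. Of the transcripts, 33992 matched 16958 genes by accession in a RefSeq gene table of Release 6. Base means up to 30 were resolved into whole reads with Python 3.11.15, with a tolerance of 2e-08. All 9921 gave exactly 1 set of reads. The method was tested on simulated data. Poisson and binomial intervals are exact, at the 95% level, and cover counting error only, since reads are not independent molecules. Levels per side were solved from base mean and fold change with 3 libraries on one side and 1 on the other. The transcripts, neighbours, likeness and list genes to be named followed fixed rules. These took all family transcripts, the nearest gene before and the next by start position, and the 3 closest transcripts. In each list they took the 3 most abundant, the highest, the lowest and any called gene. Any other list gene was named with its values in view. The members and lists were chosen with earlier results of these data known. Alternatives were the authors' DESeq2 table, a threshold of 0.01, adjustment over other sets of transcripts, other base mean limits, and leaving out a library.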

Additional observations from a re-analysis of the deposited data

How the results depend on the processing

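Of 59 combinations of a result and an alternative setting, 52 kept their side of the threshold or stayed within the limit set, 7 moved beyond it, and no called value changed sign. For list medians the limit was 1 median DESeq2 standard error of the list's genes, which is wide. Within it, the median of the reported targets, 0 of which were called, changed sign (0.07 at base mean 50 or above, against -0.06). The RNA-binding median was 0.13 and the glial one also 0.13 with all base means above 0, against 0.54 and 0.21, and the neuroblast median was 0.30 at base mean 50 or above, against 0.17. The family had 0 calls under every alternative run, while the calls over all transcripts ranged from 208 to 333. The 7 that moved follow, and the cause was not tested. In the DESeq2 table the median of the muscle list was -1.09, that of the fat body list -1.81 and that of the salivary gland list -2.55. With all base means above 0 the fat body median was -4.33 and the salivary gland median -2.47, and with a minimum of 50 normalized counts the salivary gland median was -10.01. The ratio of A, C and D to B for the low elav transcript ran from 0.423 to 0.994 with 1 library left out, and the lowest value was the one without library C. No paired analysis was possible because neither table gives samples separately. This is also why the fits without a labelled sample, the replicate block and other normalizations were not run. Counts of 62 to 87 reads limit the precision for the low transcripts of elav, fne and Rbp9, and the 1 library on the side of B limits every comparison.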
